A study of Mus musculus with 38 samples.

Results

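The 10 genes described here, Cdh1, Epcam, Krt8, Krt18, Krt19, Cldn6, Cldn7, Esrp1, Grhl2 and Ap1m2, build, splice and sort the proteins of an epithelial cell surface. They were chosen by name, as genes of epithelial adhesion, of keratin filaments, of their regulation and of membrane sorting, and they are 10 of the 29267 genes in the expression tables. RNA sequencing was performed on 38 mouse libraries in 18 groups, to ask how the transcription factor c-Jun and its kinase, c-Jun N-terminal kinase (JNK), bear on the primed to naive transition (PNT) of pluripotent cells. Each of the 10 genes passed the filter on low counts in all 3 model fits, so that none was left out of a test.

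The naive cells were embryonic stem cells (ESCs, n = 5), kept in N2B27 with 2i and LIF. The primed cells were epiblast stem cells (EpiSCs, n = 4), kept in Activin A and bFGF. The study's methods give both culture on feeder cells and feeder-free culture for them, and do not say which gave the RNA. kEpiSCs (n = 2) are EpiSCs that stably carry a Klf4 transgene, and they were sampled before and at days 1, 2 and 3 of PNT in iCD1 medium (n = 2 a day). The same days were sampled with JNKi, the JNK inhibitor SP600125 (n = 2, 3 and 2 at days 1, 2 and 3), and kiPSCs (n = 2) are the induced cells at the end of this route. In the knockout arm, Jun had been deleted in ESCs with a pair of guide RNAs on either side of its exon, and the cells were then turned into EpiSC-like cells with Activin A, bFGF, XAV939 and IWR. The Klf4 transgene of the kEpiSC line was driven, according to the study, by a CAG promoter, and the number of knockout clones is not stated. JunKO-iEpiSCs and JunKO-kiEpiSCs were primed cells of this genotype (n = 1 each), set against WT-iEpiSCs and WT-kiEpiSCs (n = 1 each), and JunKO-kiEpiSCs and WT-kiEpiSCs were also sampled at day 3 of PNT in iCD1 medium, with JNKi or without it (n = 2 for each of the 4 groups). Klf4 RNA was at 36.3 to 131 TPM (transcript abundance scaled to length and depth) in the 12 libraries of the knockout arm, iEpiSCs included, and at 65.2 and 103 TPM in kEpiSCs, against 0.52 to 1.94 TPM in EpiSCs. ESC replicates 1 and 2 carry the strain label CBA/CaJ X C57BL/6J, and no strain label is given for the other libraries. Replicates are described as biological in a legend of the study, but no label states that they were separate cultures, so that p-values measure only the spread between these samples.

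Epithelial cells hold each other through adherens junctions, whose core is E-cadherin (Cdh1), and seal the space between them with tight junction claudins such as Cldn6 and Cldn7. Epcam is a surface adhesion protein that binds claudin-7, and the keratins Krt8, Krt18 and Krt19 are the intermediate filament proteins of simple epithelia, where the type II keratin 8 pairs with the type I keratins 18 and 19. Esrp1 is the splicing factor that produces epithelial isoforms, Grhl2 is a transcription factor that activates epithelial junction genes, and Ap1m2 encodes the mu subunit of the AP-1B adaptor, a clathrin adaptor that sorts membrane proteins to the basolateral surface. This adaptor shares only its name with the AP-1 transcription factor of which c-Jun is a part. Both naive and primed pluripotent cells are epithelial, and in many cell types the repressors Zeb1, Zeb2, Snai1 and Snai2 silence epithelial genes by binding E-box elements in their promoters.

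On the mm10 assembly, as GENCODE M21 annotates these protein-coding genes, Cdh1 is at chr8:106603351-106670246, Epcam at chr17:87635979-87651129 and Cldn6 at chr17:23679249-23682446, all on the plus strand. Krt18 (chr15:102028180-102032027, plus strand) and Krt8 (chr15:101996698-102004482, minus strand) are neighbours, and Grhl2 (chr15:37233036-37363569, plus strand) is on the same chromosome. Krt19 is at chr11:100140810-100148665 (minus strand), Cldn7 at chr11:69964779-69967885 (plus strand), Esrp1 at chr4:11331933-11386783 (minus strand) and Ap1m2 at chr9:21294275-21312337 (minus strand). Krt8, Esrp1 and Grhl2 overlap genes annotated on the other strand, and reads of such pairs cannot be told apart where counting ignores strand, which is not stated.

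The promoters of 6 of the 10 genes were found in the RefSeq promoter set (assembly GRCm38.p6), as 7 windows of 300 bases, since Cldn7 has 2 start sites. They are shown because the E-box CACCTG, read as CACCTG or CAGGTG on the strand printed, lay in 6 of the 7 windows, and 4 of the 7 held at least 2. Among all 32851 promoter windows of this length, 20.2% held at least 1 and 2.88% at least 2. The windows of Ap1m2 (chr9:21312284-21312583, minus strand), Epcam (chr17:87635729-87636028, plus strand), Cldn6 (chr17:23679115-23679414, plus strand) and the downstream start of Cldn7 (chr11:69965171-69965470, plus strand) are printed 5′ to 3′ with each E-box in capitals.
Ap1m2: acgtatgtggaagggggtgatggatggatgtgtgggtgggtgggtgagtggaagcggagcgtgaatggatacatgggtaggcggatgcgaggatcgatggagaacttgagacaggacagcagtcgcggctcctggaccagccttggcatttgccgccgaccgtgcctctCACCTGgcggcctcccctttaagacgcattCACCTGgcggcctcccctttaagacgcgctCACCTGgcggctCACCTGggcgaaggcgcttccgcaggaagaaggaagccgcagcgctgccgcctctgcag
Epcam: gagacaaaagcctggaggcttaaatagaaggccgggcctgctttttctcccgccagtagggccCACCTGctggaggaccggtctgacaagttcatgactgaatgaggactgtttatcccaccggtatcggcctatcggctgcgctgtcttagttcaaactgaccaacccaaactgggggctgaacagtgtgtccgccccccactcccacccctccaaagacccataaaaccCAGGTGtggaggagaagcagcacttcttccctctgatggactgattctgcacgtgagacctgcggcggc
Cldn6: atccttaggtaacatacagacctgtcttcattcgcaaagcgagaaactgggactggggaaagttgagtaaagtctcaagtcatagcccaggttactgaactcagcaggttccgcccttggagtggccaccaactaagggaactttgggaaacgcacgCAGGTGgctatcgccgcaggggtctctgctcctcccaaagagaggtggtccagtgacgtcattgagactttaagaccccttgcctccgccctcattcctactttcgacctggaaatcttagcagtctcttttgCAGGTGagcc
Cldn7: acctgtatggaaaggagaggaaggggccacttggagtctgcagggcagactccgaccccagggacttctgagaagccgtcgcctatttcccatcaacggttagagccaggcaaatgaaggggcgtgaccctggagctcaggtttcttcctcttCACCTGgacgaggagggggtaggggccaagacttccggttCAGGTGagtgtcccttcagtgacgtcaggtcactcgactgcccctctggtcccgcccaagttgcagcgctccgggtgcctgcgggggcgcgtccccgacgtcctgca
The Ap1m2 window held 4 E-boxes, which began 81, 51, 21 and 9 bases before the start site, and 18 of the 32851 windows (0.0548%) held as many. The first and the second of them lie in 2 exact copies of a run of 28 bases, 30 bases apart.
Ap1m2 repeat: tCACCTGgcggcctcccctttaagacgc
Krt8 and Krt18 held 1 E-box each, and the upstream start of Cldn7 held none. A pair of other elements was searched on both strands, the AP-1 element TGANTCA, which 7.81% of all windows held, and the Grhl element AACCNGTT, which 2.09% held. Neither was in the 7 windows. Of the GC-rich boxes that Klf factors bind, CCCCACCC (9.99% of all windows) lay in the Krt8 window and in that of the upstream Cldn7 start, and CCCCGCCC (17.6%) in none. Such matches describe letters only. Cdh1, Krt19, Esrp1 and Grhl2 were not in this set.

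Library totals ran from 2164711 to 15944949 counts, and those of the 12 libraries of the knockout arm from 2821039 to 3724454. The labels matched the state markers. A list of 7 naive genes summed to 1282 to 1948 TPM in ESCs, against 4.86 to 10.4 TPM in EpiSCs, and a list of 6 primed genes to 61.7 to 81.5 TPM in ESCs, against 480 to 1174 TPM in EpiSCs. Jun itself was at 5.01 to 14.6 TPM in the 6 JunKO libraries, against 40.4 to 240.4 TPM in the 6 WT libraries. Its log2 fold change was -4.15 in primed cells (adjusted p = 0.00184), -4.25 at day 3 in iCD1 (adjusted p = 0.00277) and -2.65 at day 3 with JNKi (adjusted p = 0.0133). EpiSC replicate 1 stood apart from the other EpiSC libraries. It had 8.78 CPM (counts scaled to the library total) of Xist, against 1670 to 2090 CPM in the other 3, and 39.3 CPM of the Y-linked Eif2s3y, against 0.697 to 0.728 CPM, and its 8 primitive endoderm markers summed to 108.2 TPM, against 10.5 to 24.9 TPM. ESC replicate 5 stood apart by its 8 fibroblast markers, at 477 TPM, against 6.73 to 42.0 TPM in the other 4 ESC libraries. ESC replicate 1 had 0 CPM of Eif2s3y, against 42.1 to 78.3 CPM in the other 4. ESC replicates 1 to 4 also differed in the median of gene length less the effective length used for TPM. It was 73.5 bases in them, against 176 in ESC replicate 5, 189 to 192 in EpiSCs and 160 and 161 in kiPSCs. This difference and the cell state cannot be told apart where those 4 libraries are set against other groups.

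Across the 18 group means, the 10 genes ran through ranges of different width. Esrp1 had the widest, at 84.2 TPM in kEpiSCs and 0.44 TPM in kiPSCs, a ratio of 191. Grhl2 ran from 19.3 TPM in kEpiSCs to 2.13 TPM in WT cells at day 3 in iCD1, and Cdh1 from 415 TPM in JunKO-kiEpiSCs to 18.4 TPM in the same WT cells at day 3. Of the 45 pairs of these genes, 27 had a Pearson correlation over 0.5 across the 18 group means of log2(TPM + 1), with a median of 0.64. Cldn6 and Esrp1 were the most alike (0.97) and Cdh1 and Krt19 the least (-0.06). These are descriptions, since groups share a line, a batch of cells or a day.

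The first comparison asked how naive cells differ from primed ones. Of the 10 genes, 8 were lower in ESCs than in EpiSCs, against 23.8% of all 13923 genes tested that were lower, and none was higher. The median log2 fold change of the 10 was -2.87, against 0.02 over all genes. Cdh1 and Ap1m2 were the pair that did not pass the test. ESC replicates 1 to 4 also differ from the EpiSCs in effective length, as given above, and this cannot be told apart from the naive state. A fit with ESC replicate 5 as the only naive library is given below. In bulk RNA, fewer cells of a type and less RNA per cell cannot be told apart, here and in every comparison that follows.

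Esrp1 showed the largest change of the 10. It was at 0.85, 0.94, 4.41, 1.89 and 0.42 TPM in ESCs, against 74.4, 44.4, 56.2 and 29.1 TPM in EpiSCs. Every ESC library lay under every EpiSC library, and the fold was 35.7 (log2 fold change -5.16 ± 0.51 (SE), adjusted p = 3.95e-06). Grhl2, which acts on junction genes, was 2.81-fold lower, at 2.37 to 6.33 TPM in ESCs and 5.30 to 11.2 TPM in EpiSCs (adjusted p = 0.00284), and ESC replicate 1, at 6.33 TPM, lay above EpiSC replicate 2.

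The 3 keratins fell together in ESCs. Krt18 was at 2.31, 3.21, 20.6, 5 and 3.46 TPM in ESCs, against 67.6, 116, 162.7 and 88.4 TPM in EpiSCs, with no overlap (15.2-fold lower, adjusted p = 0.000122). Its partner Krt8 was at 1.56 to 25.9 TPM in ESCs and 53.8 to 162.5 TPM in EpiSCs (9.71-fold lower, adjusted p = 0.00105). Krt19 was at 1.78, 0, 11.2, 2.72 and 1.08 TPM in ESCs, against 9.46, 18.6, 70.6 and 37.6 TPM in EpiSCs (12.4-fold lower, adjusted p = 0.00113), and here ESC replicate 3 lay above EpiSC replicate 1.

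The claudins and Epcam were lower as well. Cldn6, a claudin of embryonic epithelia, was at 7.35, 13.7, 23.7, 16.4 and 6.69 TPM in ESCs, against 309, 131, 201 and 106 TPM in EpiSCs (13.9-fold lower, adjusted p = 1.06e-05). Cldn7 was at 5.32 to 24.9 TPM in ESCs and 38.4 to 175.9 TPM in EpiSCs (5.51-fold lower, adjusted p = 0.00219), and Epcam at 60.7 to 114 TPM in ESCs and 159 to 284 TPM in EpiSCs (2.44-fold lower, adjusted p = 0.00414). None of these 3 genes had an ESC library within the EpiSC range. With ESC replicate 5 as the only naive library, Epcam (adjusted p = 0.141) and Cldn7 (adjusted p = 0.0986) did not pass, and the other 6 did.

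Cdh1 was high on both sides. It was at 243, 329.8, 229.6, 316 and 365 TPM in ESCs, against 291, 172, 219.9 and 136 TPM in EpiSCs (log2 fold change 0.45 ± 0.22, adjusted p = 0.099). The groups overlapped only through EpiSC replicate 1. Without that library, the log2 fold change was 0.78 and passed (adjusted p = 0.00241).

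Ap1m2 was split within EpiSCs. It was at 4.48, 8.21, 12.9, 22.4 and 4.22 TPM in ESCs, against 75.1, 0.41, 0.41 and 0.85 TPM in EpiSCs, which were 156, 1, 1 and 2 counts. EpiSC replicate 1 was above every ESC library, and the other 3 EpiSC libraries were below every ESC library, and the log2 fold change over all of them was -0.96 ± 1.12 (adjusted p = 0.5). Without EpiSC replicate 1 it was 4.30, in the other direction (adjusted p = 0.00106). The part of that library's Xist, Y-linked and primitive endoderm levels in its Ap1m2 value was not tested.

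**Figure D1:**
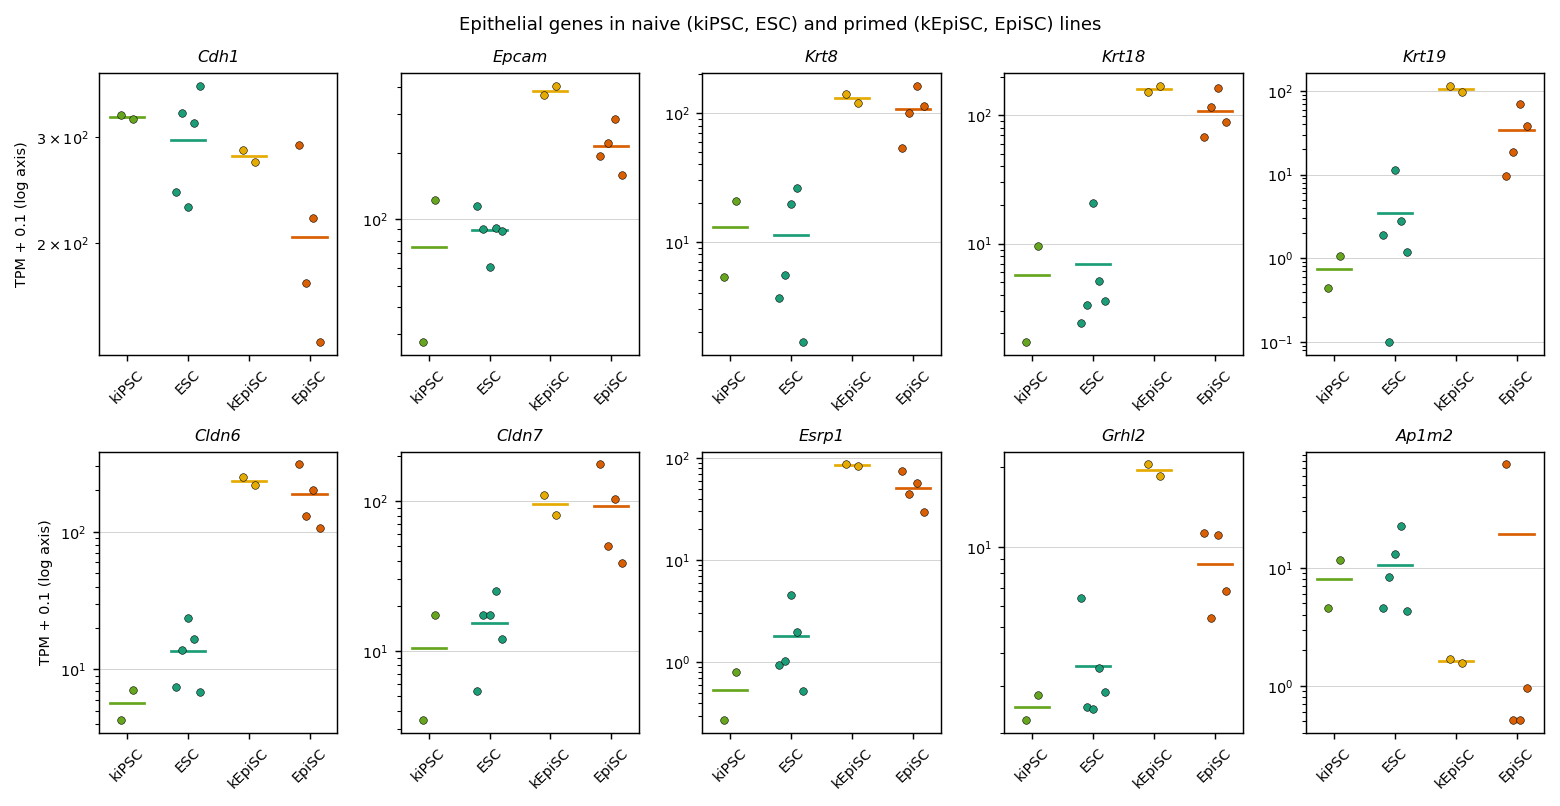
Levels of the 10 genes in kiPSCs, ESCs, kEpiSCs and EpiSCs, with each dot a library, each bar a group mean, and TPM + 0.1 on a log axis. Esrp1 lies at 0.42 to 4.41 TPM in ESCs and 29.1 to 74.4 TPM in EpiSCs, Cdh1 is high in all 4 states, and Ap1m2 is at 75.1 TPM in 1 EpiSC library and under 1 TPM in the other 3.

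Related genes did not all move with the 10, in a comparison where 27.1% of all genes were higher in ESCs and 23.8% lower. Of 10 other tight junction genes, 2 were higher in ESCs, among them Cldn4 (log2 fold change 2.69), and 2 lower (Cgn, -2.01, and Marveld2, -1.49). Of 7 desmosome genes, 2 were higher (Pkp3, 2.86, and Dsg2, 2.82) and 2 lower (Perp, -2.59, and Pkp2, -0.87). Of 6 cadherin and catenin genes, Jup was higher (0.85), and Cdh2, which encodes N-cadherin, and Ctnnb1 were lower (-3.03 and -0.31). Of 8 other epithelial transcription and splicing factors tested, 6 were higher in ESCs, among them Elf3 (4.75) and Grhl3 (3.70), and none was lower. Of 12 polarity and sorting genes, 2 were higher (Llgl2, 1.68, and Ap1s1, 0.43) and 6 lower, among them Mal2 (-5.70), which encodes a protein of apical transport, and Rab25 (-2.32). Of 6 surface protease genes, Spint1 was higher (0.91), and Prss8 (-1.57) and Cd24a (-1.49) were lower. Of 2 other keratins tested, Krt42 was higher (6.37), and of 4 repressor genes tested, Zeb2 (-3.84) and Twist1 (-3.51) were lower and none was higher.

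kEpiSCs, which carry the Klf4 transgene, were next set against EpiSCs. The lines also differ in their sex-linked genes: Xist was at 1.07 and 1.02 CPM in kEpiSCs, against 1670 to 2090 CPM in 3 of the 4 EpiSC libraries, and Eif2s3y at 58.6 and 65 CPM in kEpiSCs, against 0.697 to 0.728 CPM in those 3. The transgene and the line therefore cannot be told apart here. None of the 10 genes passed the test between kEpiSCs and EpiSCs, and 1.26% of all genes did. edgeR gave 3 of the 10 an unadjusted p under 0.05, against 14.5% of all genes, Epcam (log2 fold change 0.91 ± 0.39), Krt19 (1.73 ± 0.74) and Grhl2 (1.30 ± 0.40), all higher in kEpiSCs, and DESeq2 called 0. Krt19 was at 114 and 97.8 TPM in kEpiSCs, above each of the 4 EpiSC libraries, and Grhl2 at 20.3 and 18.3 TPM, also above each of them. Ap1m2 was at 1.59 and 1.45 TPM in kEpiSCs, within the EpiSC range (log2 fold change -3.65 ± 1.72, adjusted p = 0.35). The direction rests on EpiSC replicate 1, without which the log2 fold change was 1.58 (adjusted p = 0.473).

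kiPSCs, the end point, were likewise set against ESCs. None of the 10 passed, and 0.144% of all genes did. edgeR gave 1 of them an unadjusted p under 0.05, against 5.49% of all genes. This was Cldn6, at 4.15 and 6.96 TPM in kiPSCs and 6.69 to 23.7 TPM in ESCs (log2 fold change -1.33 ± 0.60), and DESeq2 called 0. The errors were wide for some genes, with log2 fold changes of -1.93 ± 0.92 for Esrp1 and -0.42 ± 1.42 for Ap1m2. The pair of kiPSC libraries also differed from each other, with Epcam at 27.6 and 122 TPM, Krt8 at 5.22 and 20.5 TPM and Cldn7 at 3.34 and 17.4 TPM in replicates 1 and 2.

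The time course asked when the primed levels were lost in iCD1 medium. After 1 day, 5 of the 10 genes were lower than in kEpiSCs, against 23.1% of the 14892 genes tested, and 2 were higher, against 23.2%. Cldn7 fell furthest, to 24.7 and 10.04 TPM at day 1, against 109 and 80.6 TPM in kEpiSCs (7.71-fold lower, adjusted p = 0.000106). Epcam fell to 149.6 and 159 TPM, against 365 and 402 TPM (2.71-fold lower, adjusted p = 0.00889). The other 3 that fell did so by less than 2-fold: Krt18 (log2 fold change -0.91, adjusted p = 0.0333), Esrp1 (-0.89, adjusted p = 0.0138) and Grhl2 (-0.83, adjusted p = 0.0236).

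Krt8 and Ap1m2 rose at day 1. Krt8 was at 298 and 347 TPM, against 141 and 120.1 TPM in kEpiSCs (2.27-fold higher, adjusted p = 0.00945), while its filament partner Krt18 was at 95.3 and 89.8 TPM, against 152 and 169 TPM. Ap1m2 was at 8.75 and 9.63 TPM, against 1.59 and 1.45 TPM in kEpiSCs (5.51-fold higher, adjusted p = 0.000299). Cdh1, Krt19 and Cldn6 did not pass, and Cdh1 was at 244 and 269 TPM, against 285 and 273 TPM. With 1 of the 4 libraries left out, which leaves 1 in a group, some of the 7 calls were lost each time. The log2 fold change of Cldn7 then ran from -3.46 to -2.56, that of Ap1m2 from 2.39 to 2.53 and that of Krt18 from -0.99 to -0.83. In one fit of all 38 libraries only Cldn7 and Epcam passed, and Ap1m2 did not (adjusted p = 0.132). DESeq2 did not call Krt18 (adjusted p = 0.161). A list of 9 trophoblast markers summed to 310 to 353 TPM at day 1, against 22.5 to 23.8 TPM in kEpiSCs (Tpbpa was at 0 in both), and 4 surface ectoderm markers to 27.9 to 31.3 TPM, against 1.06 to 1.69 TPM (Krt5 was at 0 in kEpiSCs). Krt8 also marks such cells, and the part of these markers in its rise was not tested.

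Between day 1 and day 2, 8 of the 10 fell, against 9.38% of all genes. Cdh1 fell to 70.3 and 74.1 TPM at day 2, against 244 and 269 TPM at day 1 (3.42-fold lower, log2 fold change -1.78 ± 0.18, adjusted p = 6.06e-06). Krt19 was 3.77-fold lower (adjusted p = 0.00319), Ap1m2 2.92-fold lower (adjusted p = 0.0257) and Krt8 2.88-fold lower (adjusted p = 0.00632). Krt18, Epcam, Esrp1 and Cldn6 were 2.63, 2.43, 2.03 and 2.01 times lower, with adjusted p from 0.0139 to 0.0487. Cldn7 and Grhl2 did not pass (log2 fold changes 0.01 ± 0.50 and -0.73 ± 0.30). With 1 of the 4 libraries left out, which leaves 1 in a group, most of the 8 calls were lost each time. The log2 fold change of Cdh1 then ran from -1.85 to -1.70 and that of Epcam from -1.37 to -1.19. The Cdh1 call was the only one in one fit of all 38 libraries. DESeq2 did not call Epcam (adjusted p = 0.0847) and Krt18 (0.0555), and Epcam did not pass with RLE size factors either (0.0503).

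At day 3, Krt18 alone changed. It rose to 147 and 128 TPM, against 38.1 and 30.5 TPM at day 2 (3.64-fold higher, adjusted p = 0.00396), where 6.13% of all genes were higher, but did not pass in one fit of all 38 libraries (adjusted p = 0.0791). Krt8 was at 141 and 112 TPM at day 3, against 102 and 117 TPM at day 2, and did not pass. The ratio of Krt8 to Krt18 by TPM was 0.927 and 0.709 in kEpiSCs, 3.12 and 3.87 at day 1, 2.67 and 3.82 at day 2, and 0.96 and 0.878 at day 3, a description with no test. With JNKi it was 3.16 and 3.95 at day 1, 3.28 to 3.52 at day 2, and 1.29 and 1.18 at day 3, so that Krt8 stood above Krt18 at days 1 and 2 in both media. Cdh1 was at 61.5 and 49.2 TPM at day 3 (log2 fold change -0.52 ± 0.18 against day 2, adjusted p = 0.0704), the lowest Cdh1 levels of this course.

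kiPSCs differed from kEpiSCs, the start of the course, in 9 of the 10 genes. Of these, 8 were lower, against 29.2% of all genes, and Ap1m2 was higher, where 28.2% of all genes were. Esrp1 was at 0.17 and 0.71 TPM in kiPSCs, against 86.3 and 82.2 TPM in kEpiSCs (241-fold lower, adjusted p = 1.94e-09), and Krt19 at 0.34 and 0.96 TPM, which were 2 and 3 counts, against 114 and 97.8 TPM (203-fold lower, adjusted p = 1.03e-07). Cldn6 was 47.0-fold, Krt18 34.9-fold, Cldn7 13.1-fold, Krt8 11.8-fold, Grhl2 9.39-fold and Epcam 5.67-fold lower. Ap1m2 was at 4.44 and 11.5 TPM in kiPSCs, against 1.59 and 1.45 TPM in kEpiSCs (4.68-fold higher, adjusted p = 0.0005), and did not pass in one fit of all 38 libraries (adjusted p = 0.146). Cdh1 was at 327 and 322 TPM, against 285 and 273 TPM, and did not pass (log2 fold change 0.08 ± 0.17).

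The level of Cdh1 was lower on the way than at either end. Against day 3, kiPSCs had 6.15-fold more Cdh1 (log2 fold change 2.62 ± 0.19, adjusted p = 1.13e-08), a direction in which 29.3% of all genes passed, and 7 of the 10 genes were lower, against 28.6% of all genes. Krt19 (57.7-fold), Esrp1 (46.0-fold) and Krt18 (25.6-fold) were lower by the most. Epcam was at 27.6 and 122 TPM in kiPSCs, against 88.5 and 66.5 TPM at day 3 (log2 fold change 0.02 ± 0.43), and its direction rests on the kiPSC libraries: it was -1.37 without kiPSC replicate 2 (adjusted p = 0.00109) and 0.73 without replicate 1 (adjusted p = 0.0266). Cldn7, which was 2.54-fold lower (adjusted p = 0.0393), did not pass without day 3 replicate 1 (log2 fold change -0.87) or kiPSC replicate 1 (-0.55), and Ap1m2, which did not pass (0.81), did so without kiPSC replicate 1 (1.35, adjusted p = 0.0123).

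**Figure D2:**
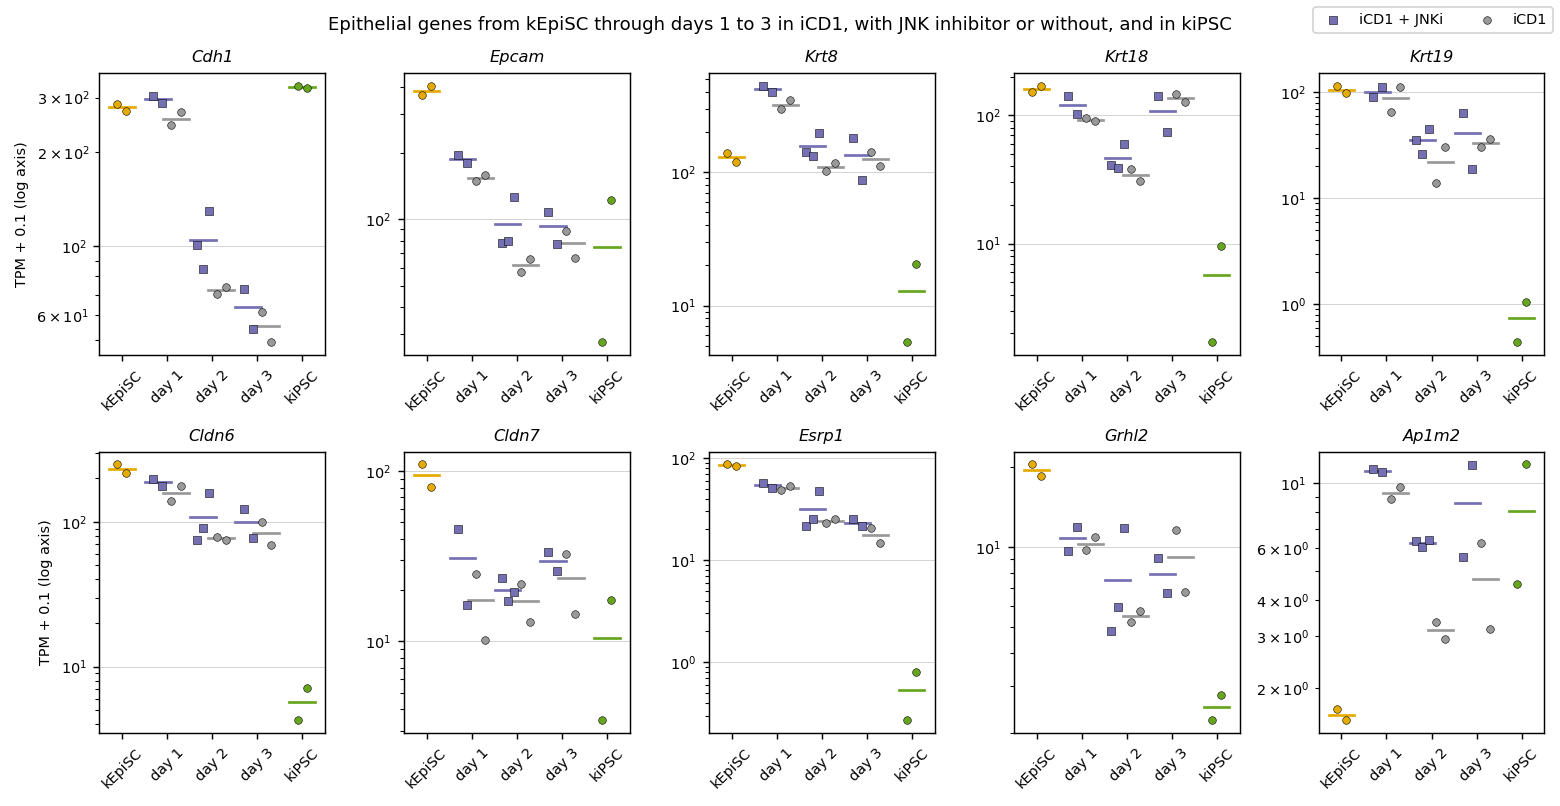
Levels of the 10 genes from kEpiSCs through days 1, 2 and 3 of PNT with JNKi (squares) or without it (circles), and in kiPSCs, with each point a library, each bar a group mean, and TPM + 0.1 on a log axis. Cdh1 is at 49.2 to 74.1 TPM at days 2 and 3 in iCD1 and at 322 and 327 TPM in kiPSCs, and Krt8, Krt18, Krt19, Cldn6 and Esrp1 are lowest in kiPSCs.

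Related genes were counted at day 1 as well, where 23.2% of all genes were higher than in kEpiSCs and 23.1% lower. Some of the counts that follow are near these shares. Of 6 repressor genes, 5 were higher, with Snai1 (log2 fold change 3.83) and Zeb2 (3.34) the most, and none was lower. Of 10 other tight junction genes, 7 were lower, among them Tjp3 (-4.34) and Marveld3 (-2.15), and Cldn4 (1.43) and F11r (0.58) were higher. Of 7 desmosome genes, 3 were higher, among them Dsp (3.35) and Dsc2 (2.66), and Pkp2 was lower (-2.22). Of 6 other keratins tested, Krt14 was higher (4.46) and 3 were lower, among them Krt42 (-5.89) and Krt20 (-3.98). Of 12 polarity and sorting genes, 4 were higher, among them Myo5b (1.84) and Ap1m1 (0.95), which encodes the ubiquitous counterpart of Ap1m2, and 6 were lower, among them Mal2 (-4.53) and Rab25 (-2.72). Of 8 other epithelial factors, Grhl3 (2.44), Esrp2 (2.27) and 2 more were higher and none was lower, and of 7 surface genes, 4 were higher, among them Lad1 (2.74), and Prss8 was lower (-1.64). Of 6 cadherin and catenin genes, Cdh2 was higher (2.68) and Jup lower (-0.55).

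JNKi was compared with iCD1 alone at each day. None of the 10 passed at day 1, 2 or 3, or in a test of the day 3 effect less the day 1 effect. Of all genes, 0% were called at day 1, 0.00672% at day 2, 0% at day 3 and 0% for the difference of days. edgeR gave an unadjusted p under 0.05 to 0 of the 10 at day 1, 2 at day 2, 0 at day 3 and 0 for the difference, against 1.82%, 2.89%, 3.34% and 2.28% of all genes, and DESeq2 called 0 of the 10 in each. Those at day 2 were Cdh1, at 101, 84.5 and 129 TPM with JNKi, against 70.3 and 74.1 TPM without it (log2 fold change 0.53 ± 0.16), and Ap1m2, at 6.25, 5.96 and 6.32 TPM, against 3.25 and 2.84 TPM (1.01 ± 0.43). Neither gene's libraries overlapped, but the share of all genes without overlap was not counted for this comparison. The log2 fold changes were positive for 9, 10 and 8 of the 10 genes at days 1, 2 and 3, where 48.8%, 51.3% and 50.5% of all genes were positive, and the libraries within a day are the same for all genes. The SEs of the 10 genes ran from 0.16 to 0.49 on the log2 scale at days 1 to 3, and from 0.25 to 0.68 for the difference of days.

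Loss of c-Jun was tested first in primed cells, with the iEpiSC and kiEpiSC pairs in one test and the line as a term. The Y-linked Eif2s3y was at 43.9 to 76.6 CPM in all JunKO libraries, against 4.55 to 25.9 CPM in all WT libraries. Ddx3y, also Y-linked, overlapped, at 43 to 68.6 CPM against 35.1 to 67.9 CPM. Since the number of clones is not known, loss of Jun and a difference between clones cannot be told apart in any JunKO comparison. Ap1m2 was the only one of the 10 that rose, in a comparison where 0.222% of 12613 genes rose. It was at 27.2 TPM in JunKO-iEpiSCs and 46.2 TPM in JunKO-kiEpiSCs, against 0.40 TPM in WT-iEpiSCs and 3 TPM in WT-kiEpiSCs (20.8-fold higher, log2 fold change 4.38 ± 0.46, adjusted p = 0.00541). In counts these were 70 and 129 in JunKO cells, against 1 and 9 in WT cells, so that the ratio within iEpiSCs was 68.3 with a 95% exact interval of 11.9 to 2740, and within kiEpiSCs 14.8 (7.55 to 33.1), intervals that cover counting error only. The call needed all 4 libraries: without any 1 of JunKO-iEpiSC, JunKO-kiEpiSC, WT-iEpiSC and WT-kiEpiSC, the log2 fold change was 3.87 to 5.95 and the adjusted p 0.104 to 0.177. In one fit of all 38 libraries the adjusted p was 0.385, and DESeq2 gave no adjusted p for Ap1m2, Krt19 and Grhl2 and called 0 of the others.

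The other junction genes were higher in JunKO primed cells without passing. Cdh1 was at 389 and 415 TPM in JunKO-iEpiSCs and JunKO-kiEpiSCs, against 192 and 168 TPM in the WT pair (log2 fold change 1.12 ± 0.34, adjusted p = 0.227). Cldn7 was at 183 and 162 TPM, against 51.9 and 55.8 TPM (1.59 ± 0.48, adjusted p = 0.233), and Grhl2 at 18.4 and 19.2 TPM, against 9.07 and 8.76 TPM (1.10 ± 0.45, adjusted p = 0.505). Both JunKO libraries were above both WT libraries for 8 of the 10 genes, all but Epcam and Krt19, and 18.8% of all genes showed this. The median log2 fold change of the 10 was 0.63, against -0.01 over all genes. Of the related lists, 1 repressor passed: Zeb1 was at 1.48 and 2.16 TPM in JunKO cells, against 8.62 and 5.70 TPM in WT cells (log2 fold change -2.28 ± 0.29, adjusted p = 0.0125). At day 3 in iCD1, Zeb1 was at 16.2 and 12.9 TPM in JunKO cells, against 15.0 and 11.9 TPM in WT cells. With JNKi it was at 12.3 and 10.6 TPM, against 18.5 and 20.9 TPM. kEpiSCs had Zeb1 at 1.92 and 2.04 TPM with Ap1m2 at 1.59 and 1.45 TPM. In EpiSC replicates 1 to 4, Zeb1 was at 0.26, 7.19, 6.12 and 11.8 TPM, with Ap1m2 at 75.1, 0.41, 0.41 and 0.85 TPM. The part of Zeb1 in the Ap1m2 levels was not tested. In JunKO primed cells, Vim, the mesenchymal filament gene, was lower as well (-1.25 ± 0.13, adjusted p = 0.00541). No gene of the cadherin, tight junction, desmosome, keratin, factor, sorting or surface lists passed.

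The genes that neighbour Ap1m2 were looked at as well. Of 29 genes tested within 500 kb of it on chromosome 9, 0 were called in primed cells, against 0.357% of all genes, with a median log2 fold change of -0.02. The count was 0 of 29 at day 3 in iCD1 and with JNKi as well, against 1.7% and 0.92% of all genes, with medians of -0.02 and -0.08. At such shares a count of 0 among 29 genes says little. The highest neighbour in each was Icam1 (1.39, 0.96 and 0.77), which did not pass.

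At day 3 of PNT in iCD1 medium, Cdh1 and Ap1m2 were higher in JunKO cells, where 1.47% of all genes were. Ap1m2 was at 15.9 and 24.8 TPM in JunKO cells, against 1.54 and 2.58 TPM in WT cells (9.84-fold higher, log2 fold change 3.30 ± 0.46, adjusted p = 0.0127). Cdh1 was at 43.9 and 81.4 TPM in JunKO cells, against 14.6 and 22.3 TPM in WT cells (3.44-fold higher, 1.78 ± 0.38, adjusted p = 0.0443). Epcam was at 40.3 and 74.2 TPM, against 20.9 and 36.4 TPM, without passing (1.02 ± 0.42, adjusted p = 0.32). Ap1m2 did not pass without WT replicate 1 (adjusted p = 0.177) or WT replicate 2 (0.0671), and Cdh1 did not pass without JunKO replicate 2 (0.242), WT replicate 1 (0.38) or WT replicate 2 (0.119), with log2 fold changes of 2.91 to 3.71 and 1.25 to 2.16. In one fit of all 38 libraries Ap1m2 did not pass (adjusted p = 0.465), and with RLE size factors Cdh1 did not (0.0503). The keratins Krt18 and Krt19 overlapped between genotypes, and Krt18 was at 39.3 and 17.5 TPM in JunKO cells, against 30.1 and 43.3 TPM in WT cells. JunKO libraries were above WT libraries, without overlap, for 6 of the 10 genes, Cdh1, Epcam, Cldn6, Esrp1, Grhl2 and Ap1m2, and this held for 20.6% of all genes.

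Cdh1 lies on chromosome 8 (mm10, chr8:106603351-106670246), and the genes of that chromosome were shifted upwards in JunKO cells as a whole. The median log2 fold change of its 679 tested genes was 0.53 in primed cells, 0.53 at day 3 in iCD1 and 0.52 at day 3 with JNKi, against -0.03, -0.01 and -0.01 for the 11934 genes elsewhere. In these 3 comparisons, 17, 106 and 42 genes of chromosome 8 were called higher, and 1 was called lower in each. Cdh1 exceeded the chromosome 8 median by 0.60, 1.25 and 1.21, and lay above 94.1%, 96.6% and 94.8% of the genes of that chromosome. With libraries scaled to the genes of chromosome 8, the log2 fold change of Cdh1 was 0.60 (adjusted p = 0.167) in primed cells, 1.25 (adjusted p = 0.0242) at day 3 in iCD1 and 1.22 (adjusted p = 0.0185) with JNKi. This scaling also shifts the genes elsewhere, over which p-values are adjusted, so that these adjusted p-values cannot be compared with those without it. They do not test Cdh1 against the spread of the chromosome 8 genes. None of the other 9 genes is on chromosome 8, but Cdh3, Marveld3, Esrp2, Ap1m1 and Ap1g1 of the related epithelial lists are. At day 3 in iCD1, Cdh3 (log2 fold change 1.47, adjusted p = 0.0244), which encodes P-cadherin, and Ap1g1 (0.73, adjusted p = 0.0221), an adaptor subunit, were the only genes of the related epithelial lists that passed.

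**Figure D3:**
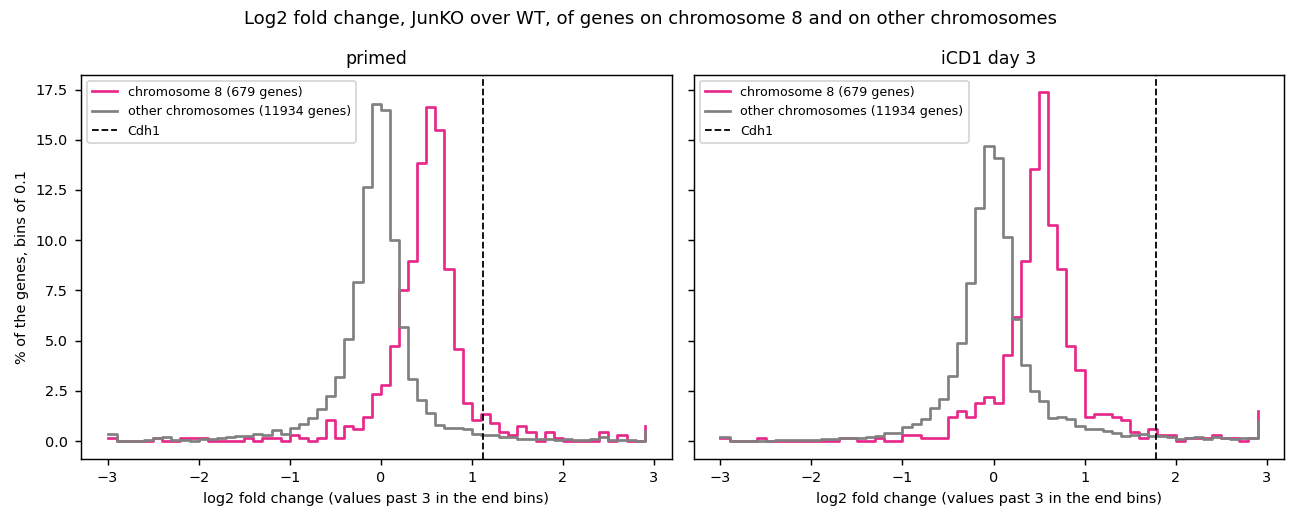
Distributions of log2 fold changes, JunKO over WT, of the 679 genes tested on chromosome 8 and the 11934 genes on other chromosomes, in primed cells and at day 3 in iCD1, with Cdh1 as a dashed line. The chromosome 8 genes centre on 0.53 in both, and Cdh1 lies at 1.12 and 1.78.

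With JNKi at day 3, Krt8 was the only one of the 10 that rose in JunKO cells, where 0.626% of all genes did. It was at 144 and 337 TPM in JunKO cells, against 53.3 and 71.8 TPM in WT cells (3.67-fold higher, log2 fold change 1.87 ± 0.36, adjusted p = 0.0457). Cdh1 was at 118.5 and 234 TPM, against 38.04 and 63.4 TPM (1.73 ± 0.35, adjusted p = 0.0508), Ap1m2 at 32.9 and 45.2 TPM, against 10.5 and 15.4 TPM (1.53 ± 0.34, adjusted p = 0.0614), and Krt18 at 81.3 and 188 TPM, against 26.4 and 53.9 TPM (1.67 ± 0.44, adjusted p = 0.0947). All 10 had an unadjusted p under 0.05, against 16.5% of all genes. DESeq2 called 3 of them, Cdh1, Krt8 and Krt18, against 1.55% of all genes, and the median log2 fold change was 1.60, against 0.01 over all genes. JunKO libraries were above WT libraries for 7 of the 10, all but Cldn7, Esrp1 and Grhl2, and for 24.9% of all genes. Across the primed cells and both day 3 conditions, Cdh1, Cldn6 and Ap1m2 were above WT throughout, as 4.37% of all genes were. None of the 10 had its JunKO libraries below its WT libraries at any of the 3 stages, but the share of all genes that did was not counted.

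The changes in this comparison rested in part on the JunKO library labelled replicate 2. It was above replicate 1 for all 10 genes, with Cldn7 at 51.2 against 10.6 TPM and Esrp1 at 52.1 against 15.0 TPM. Without replicate 1 all 10 genes passed, as did 6.97% of all genes. Without replicate 2, or without either WT library, 0 of the 10 did, but calls over all genes were then fewer or absent too. Each of these fits leaves 1 library in a group, so the counts are no result about the 10 genes alone. Over the 4 fits, the log2 fold change of Krt8 ran from 1.19 to 2.34. That of Cldn7 ran from -0.06 to 2.47 and that of Esrp1 from -0.14 to 1.67. In one fit of all 38 libraries the adjusted p of Krt8 was 0.22. The same library summed to 358 TPM over the 6 primed markers and 120.2 TPM over the 8 primitive endoderm markers, against 78.4 and 44.6 TPM in JunKO replicate 1 and 96.8 to 101 TPM and 15.7 TPM in the WT libraries. Keratins and Cldn6 are also expressed by primed cells and primitive endoderm, and the part of these markers was not tested. Of the related lists, Cdh3 (1.34, adjusted p = 0.0267), Pkp2 (0.99, adjusted p = 0.0457), Ap1s3 (1.56, adjusted p = 0.0267) and Spint2 (1.21, adjusted p = 0.0179) were higher among the junction, sorting and surface genes.

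**Figure D4:**
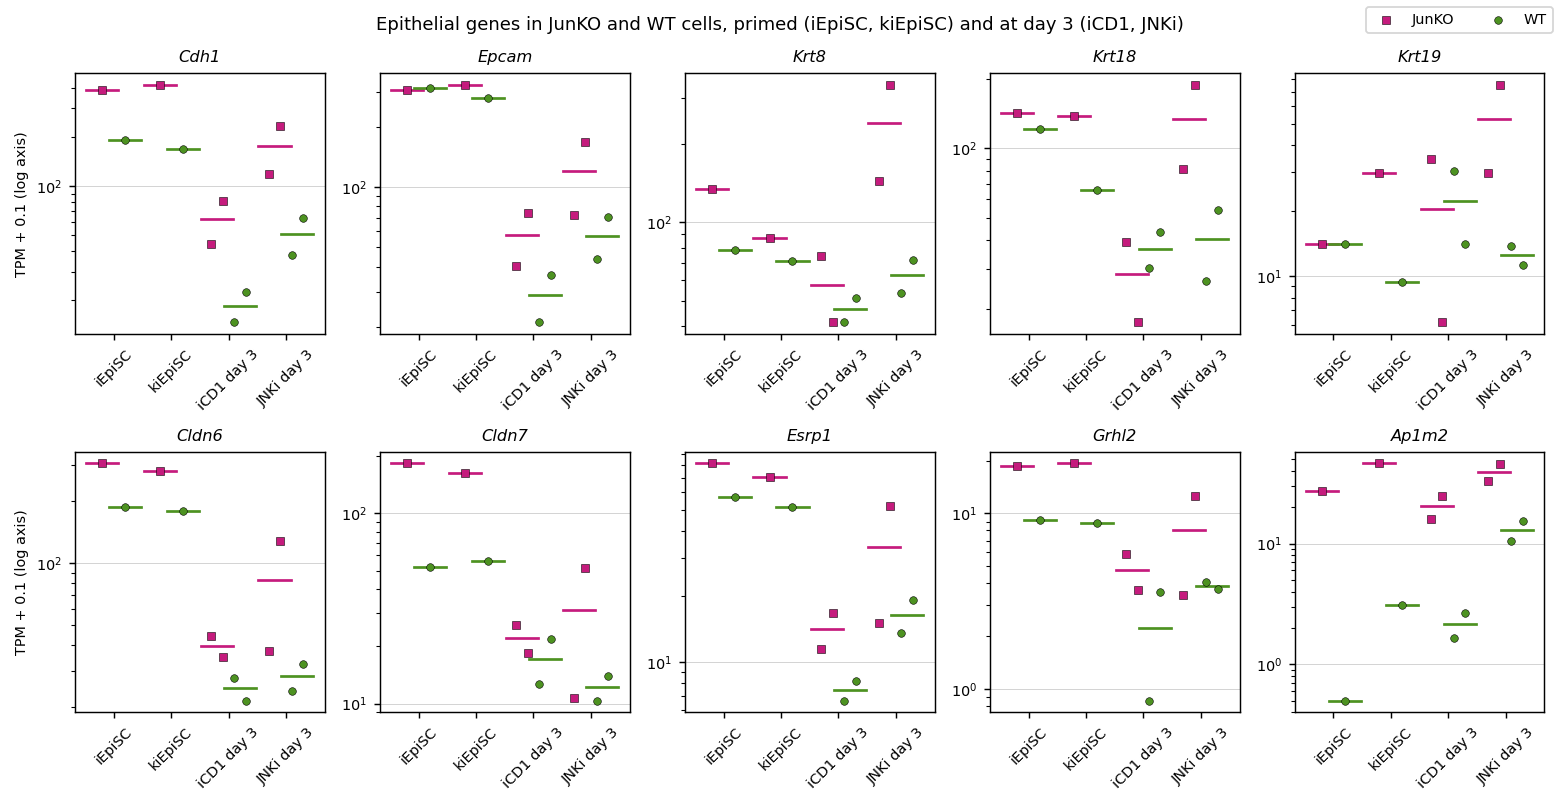
Levels of the 10 genes in JunKO (squares) and WT cells (circles), as iEpiSCs, kiEpiSCs and at day 3 of PNT in iCD1 without or with JNKi, with each point a library, each bar a group mean, and TPM + 0.1 on a log axis. Ap1m2 is at 15.9 to 46.2 TPM in all 6 JunKO libraries and at 0.40 to 15.4 TPM in the 6 WT libraries, and Cdh1 is higher in JunKO at each of the 4 positions.

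JNKi itself raised 1 of the 10 genes in WT cells at day 3, where 0.333% of all genes rose. Ap1m2 was at 10.5 and 15.4 TPM with JNKi, against 1.54 and 2.58 TPM without it (6.14-fold higher, log2 fold change 2.62 ± 0.48, adjusted p = 0.0445), and it did not pass without any 1 of the 4 libraries (log2 fold change 2.30 to 3.03, adjusted p 0.128 to 0.449) or in one fit of all 38 libraries (adjusted p = 0.635). Cdh1 was at 38.04 and 63.4 TPM with JNKi, against 14.6 and 22.3 TPM without it (1.45 ± 0.38, adjusted p = 0.13). Its libraries did not overlap, but the share of all genes without overlap was not counted here. The WT libraries in iCD1 are also part of the JunKO comparison at day 3. In JunKO cells, JNKi changed 0 of the 10 and 0.0476% of all genes. edgeR gave 8 of the 10 an unadjusted p under 0.05, against 12.6% of all genes. DESeq2 called 2, Krt8 and Krt18 (1.97 ± 0.36 and 2.17 ± 0.46 in edgeR), against 0.775% of all genes, and without JunKO JNKi replicate 1 edgeR called 8, against 4.18%.

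The difference between the genotypes in their response to JNKi was tested as an interaction. None of the 10 passed, and 0% of all genes did. edgeR gave 3 of the 10 an unadjusted p under 0.05, against 5.76% of all genes, Krt8 (1.56 ± 0.52) and Krt18 (2.04 ± 0.66), with a larger response in JunKO cells, and Ap1m2 (-1.77 ± 0.59), with a smaller one (adjusted p = 0.832 for each), and DESeq2 called 0. Without JunKO JNKi replicate 1, edgeR called 2, against 1.3% of all genes.

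Day 3 cells, which were all kiEpiSCs, were last set against the primed cells of their own genotype, iEpiSCs and kiEpiSCs together. A difference between these lines is therefore part of each change. Ap1m2 in WT cells was at 0.40 TPM in iEpiSCs and 3 TPM in kiEpiSCs, against 1.54 and 2.58 TPM at day 3. In WT cells, 7 of the 10 were lower at day 3, against 16.1% of all genes: Epcam 11-fold, Cdh1 10.4-fold, Esrp1 7.93-fold, Cldn6 7.89-fold, Cldn7 5.85-fold, Grhl2 5.62-fold and Krt18 2.62-fold, with adjusted p from 0.000134 to 0.038. Krt8 (log2 fold change -0.77 ± 0.38), Krt19 (0.72 ± 0.73) and Ap1m2 (0.25 ± 0.67) did not pass. With 1 of the 4 WT libraries left out, some of these 7 calls were lost each time. The log2 fold change of Cdh1 then ran from -3.71 to -3.09 and that of Krt18 from -1.76 to -0.97. In JunKO cells, the 7 that were lower were the same genes, against 13.3% of all genes, with Cldn7 8.69-fold, Cldn6 7.59-fold, Cdh1 6.56-fold, Esrp1 6.12-fold, Grhl2 6.12-fold, Epcam 5.64-fold and Krt18 5.18-fold lower. Krt18 did not pass without JunKO-kiEpiSC (adjusted p = 0.0877), nor Grhl2 without JunKO-iEpiSC (0.0558) or JunKO-kiEpiSC (0.058), nor Krt18 in WT cells in one fit of all 38 libraries (0.122).

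The difference between the genotypes in the loss of these genes by day 3 was tested in the same way. None of the 10 passed as an interaction, and 0.0159% of all genes did. edgeR gave 0 of the 10 an unadjusted p under 0.05, against 5.64% of all genes, DESeq2 called 0, and the differences ran from -1.08 ± 0.75 for Ap1m2 to 0.96 ± 0.54 for Epcam on the log2 scale.

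**Figure D5:**
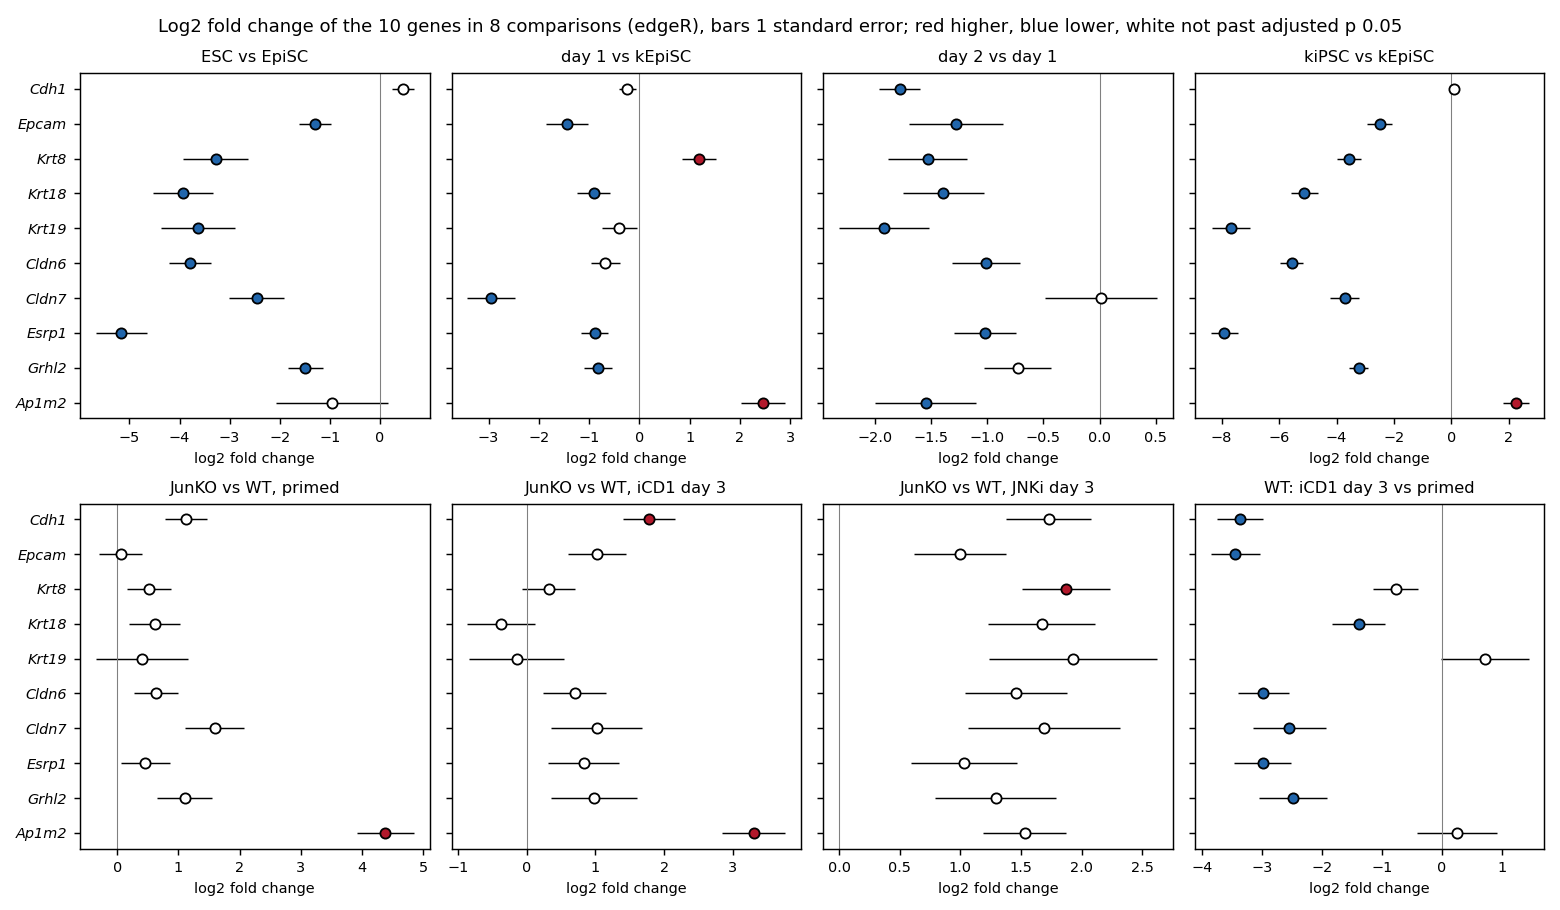
Log2 fold changes (± 1 SE) of the 10 genes in 8 comparisons, with genes past an adjusted p of 0.05 in red where higher and blue where lower, and the others in white. In ESCs against EpiSCs, 8 are lower, and in JunKO against WT primed cells Ap1m2 alone passes.

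The genes most like each of the 10, by Pearson correlation of log2(TPM + 1) over the 18 group means among 10759 genes with a mean of at least 5 TPM, were few from the same pathways. For Cdh1 they were Lrp11 (0.936), Kifc2 and Zscan10, and for Ap1m2, the member with the lowest values, Chmp1a (0.852), Cep41 and Klhdc4. Chmp1a and Klhdc4 are on chromosome 8, as are Bcar1 and Bst2, near Cldn7, and Hmgxb4, near Grhl2, and the part of that chromosome's shift in these likenesses was not tested. Cldn7 and Grhl2 both had Crb3, which encodes an apical polarity protein, among their nearest 3 (0.941 and 0.884). Esrp1 and Cldn6 shared Gstk1 (0.945 and 0.922), and the nearest genes were Sema6a for Esrp1 (0.957), Emb for Cldn6 (0.926), Acadl for Epcam (0.947), Cnppd1 for Krt8 (0.941), Tns2 for Krt18 (0.942) and Osgepl1 for Krt19 (0.909).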

How the data were processed

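The authors extracted RNA with TRIzol and sequenced it on a NextSeq 500. Per the labels, bcl2fastq, Bowtie2 and RSEM were used with mm10 (tool versions: not given in the sources used here). The authors deposited, per library, RSEM expected counts and TPM values for 29267 genes. TPM values were used for levels, and the expected counts, rounded to whole numbers, for tests.

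Counts were normalised by TMM and tested with edgeR 4.0.16 (quasi-likelihood F test, R 4.3.3) after filterByExpr with a minimum count of 10, with Benjamini-Hochberg adjustment over all genes tested and a threshold of 0.05. The 13 ESC, EpiSC, kEpiSC and kiPSC libraries, the 17 libraries of the PNT course and the 12 of the knockout arm were fitted apart, with 9, 9 and 5 residual degrees of freedom and biological coefficients of variation of 0.28, 0.142 and 0.157. Errors are SEs from the F statistic. Python 3.11.15 with pandas 2.3.3 and scipy 1.17.1 did the rest. Before use, the test was tried on simulated data with known changes.

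The 10 genes, the related lists and the markers were chosen with earlier results of these data known. Each comparison gives the number of the 10 genes that passed, and not all 10 are named in each. Of each related list, up to 2 genes per direction with the largest changes are named. Some genes that this rule selects are not reported here. Replicate numbers shared between groups were not taken to pair samples, since no label says that they do. No replicates were duplicates, since 30 replicate pairs differed by 3.91 to 35.6 times the sampling noise (chi-square per degree of freedom). Alternatives were RLE size factors, DESeq2 1.42.0, every gene with at least 1 count, a replicate block, all 38 libraries in one fit, each library left out in turn, ESC replicate 5 as the only ESC library, and scaling to chromosome 8.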

Additional observations from a re-analysis of the deposited data

Results flagged for a closer look

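Among the 20 sets of 4 or 5 replicates (the 10 genes in ESCs and in EpiSCs), 4 held a library far from the others by Dixon's criterion, which chance meets in about 1 of 20. ESC replicate 3 was high in Krt18, at 20.6 TPM, and in Krt19, at 11.2 TPM. ESC replicate 1 was high in Grhl2, at 6.33 TPM, and is the ESC library with 0 CPM of Eif2s3y. EpiSC replicate 1 was high in Ap1m2, at 75.1 TPM, and is the library that also stood apart in Xist and Eif2s3y. The causes were not tested.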

How the results depend on the processing

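Of 2140 values of single genes under the alternatives, 1953 stayed on their side of the threshold, 98 were no longer called (71 of them when a library was left out), 87 were newly called and 2 reversed. Those 2 were Ap1m2 in ESCs against EpiSCs without EpiSC replicate 1 (4.30) and Epcam in kiPSCs against day 3 without kiPSC replicate 2 (-1.37). Over all single libraries left out, the first ran from -1.44 to 4.30 and the second from -1.37 to 0.73. The number of the 10 genes called moved by more than 1.5 times as follows, and the causes were not tested. With DESeq2 it was 2 at day 3 against day 2, where 2002 of all 14313 genes were called. For JunKO against WT it was 0 in primed cells (105 of 6989 genes) and 3 with JNKi (195 of 12613). For JNKi in JunKO cells it was 2 (94 of 12123). With RLE size factors it was 1 for JunKO against WT in iCD1 (167 of 12613 genes). With every gene of at least 1 count it was 2 at day 3 against day 2 (2339 of 22847 genes) and 3 for JNKi at day 2 (83 of 22847). For JunKO against WT it was 5 in primed cells (389 of 20864), 5 in iCD1 (822) and 10 with JNKi (1138). It was 4 for JNKi in WT cells (792) and 8 in JunKO cells (717). For genotype by JNKi it was 3 (221) and for genotype by day 1 (199). P-values were far smaller in that fit (Cdh1 for JunKO against WT with JNKi had an adjusted p of 2.24e-28, against 0.0508 with the filter). With the replicate block it was 1 for kEpiSCs against EpiSCs (252 of 13923 genes). For JunKO against WT it was 2 in primed cells (152 of 12613) and 5 with JNKi (537). For JNKi it was 3 in WT cells (268) and 4 in JunKO cells (162). Cdh1 passed there for JunKO against WT in primed cells (adjusted p = 0.00199) and with JNKi (0.000237) and for JNKi in WT (0.0015) and JunKO cells (0.000755). The block is not a known pairing: deviations of same-numbered libraries correlated over 0.1 in 1 of 14, 10 of 50 and 6 of 12 pairs in the 3 fits, and those 6 were all pairs among JunKO in iCD1, WT in iCD1 and WT with JNKi (0.185 to 0.322), in groups of 2. In one fit of all 38 libraries it was 1 for kEpiSCs against EpiSCs (1013 of 15458 genes) and 2 at day 1 against kEpiSCs (4887). It was 1 at day 2 against day 1 (1083) and 0 at day 3 against day 2 (532). For JunKO against WT it was 0 in primed cells (31) and 1 in iCD1 (156), and for JNKi in WT cells 0 (57). Leaving out a library moved the calls over all genes as well, so the counts that follow are no result about the 10 genes alone. When a library was left out it was 3 to 4 at day 1 against kEpiSCs, 1 to 3 at day 2 against day 1, for JunKO against WT 0 to 0 in primed cells, 0 to 2 in iCD1 and 0 to 10 with JNKi, for JNKi 0 to 0 in WT cells and 0 to 8 in JunKO cells, 4 to 5 for WT day 3 against primed cells and 0 to 2 for genotype by JNKi. Over all genes, JunKO against WT in primed cells called 45, against 105 with DESeq2, 389 with every gene of at least 1 count, 152 with the replicate block, 31 in one fit of all libraries and 0 to 1 with a library left out. In the knockout arm each primed group is 1 library and each day 3 group 2, so that a lone library there is taken to vary like the rest.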
